A study of Mus musculus with 12 samples.

Results

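The BMP and Id genes described here are Id1, Id2, Id3, Id4, Bmpr1a, Bmpr1b, Gdf10, Smad6 and Smad7. They were chosen by name and found by symbol among the 27998 genes of each single-cell library, and by Entrez identifier among the 40814 genes of a bulk count table, where all 9 were present. Single-cell RNA was read from micro-dissected P7 dentate gyrus in 1 wild-type library, P7_WT, and 2 libraries of Larp7 f/f mice in which nestin-Cre or Emx1-Cre deletes Larp7, P7_L7_Nestin and P7_L7_Emx1. Wild-type mice were Larp7-floxed mice, gyri of several littermates were combined in each library, nestin-Cre acts throughout the developing central nervous system, and Emx1-Cre acts in the dorsal forebrain. Bulk RNA was read from neurospheres grown from P1 dentate gyrus and differentiated for 2 days, in 2 wild-type libraries (WT) and 3 libraries of Larp7 f/f;Emx1-Cre mice (KO). The 2 mutant single-cell libraries carry titles that conflict with their genotype labels: the library titled P7_L7_Nestin is labelled Larp7 f/f;Emx1-Cre and the library titled P7_L7_Emx1 is labelled Larp7 f/f;Nestin-Cre. The titles were followed, so which Cre belongs to which of these libraries is uncertain.

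Bone morphogenetic proteins (BMPs) bind type I receptor kinases such as Bmpr1a and Bmpr1b together with type II receptors. The receptors phosphorylate Smad1, Smad5 and Smad9, which enter the nucleus with Smad4 and raise transcription of the Id genes. Id proteins have a helix-loop-helix but no DNA-binding region, so they pair with E proteins and keep them from proneural partners. Smad6 and Smad7 are inhibitory Smads that are themselves targets of the pathway, and Gdf10 is a secreted ligand of the TGF-beta superfamily. In the dentate gyrus BMP signalling is known for holding neural stem cells in quiescence.

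On mouse genome GRCm38.p6 (mm10), Id1 lies at chr2:152736251-152737410, Id2 at chr12:25093799-25096092, Id3 at chr4:136143822-136145392 and Id4 at chr13:48261116-48266028. Bmpr1a lies at chr14:34411061-34503336, Bmpr1b at chr3:141837135-142169585, Gdf10 at chr14:33923587-33936514 and Smad6 at chr9:63953076-64022085. RefSeq promoter windows were found for 7 of the 9 genes; Id1 and Smad7 had no entry in the table. Each window ran from 250 bases before to 10 bases after the annotated start. The windows were searched on both strands for GGCGCC, for CAGAC (with its complement GTCTG) and for GTCTAGAC, letters known from BMP-responsive and Smad-binding elements. Overlap between the motifs was allowed, and positions are counted from the start on which each window was set.

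The windows of Id2 (chr12:25096083-25096342, minus strand), Id3 (chr4:136143572-136143831, plus strand), Id4 (chr13:48260866-48261125, plus strand) and Smad6 (chr9:64022050-64022309, minus strand) are printed because these are pathway targets that the results below turn on, with motif matches in capitals.
Id2: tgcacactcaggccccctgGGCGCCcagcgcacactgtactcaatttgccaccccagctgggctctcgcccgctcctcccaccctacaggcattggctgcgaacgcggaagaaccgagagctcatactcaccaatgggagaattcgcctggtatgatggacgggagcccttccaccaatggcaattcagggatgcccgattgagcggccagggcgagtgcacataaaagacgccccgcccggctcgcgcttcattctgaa
Id3: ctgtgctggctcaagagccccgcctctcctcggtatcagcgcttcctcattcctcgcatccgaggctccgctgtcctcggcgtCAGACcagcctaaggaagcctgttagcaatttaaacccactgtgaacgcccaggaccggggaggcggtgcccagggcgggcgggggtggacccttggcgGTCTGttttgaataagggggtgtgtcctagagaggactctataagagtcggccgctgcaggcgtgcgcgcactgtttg
Id4: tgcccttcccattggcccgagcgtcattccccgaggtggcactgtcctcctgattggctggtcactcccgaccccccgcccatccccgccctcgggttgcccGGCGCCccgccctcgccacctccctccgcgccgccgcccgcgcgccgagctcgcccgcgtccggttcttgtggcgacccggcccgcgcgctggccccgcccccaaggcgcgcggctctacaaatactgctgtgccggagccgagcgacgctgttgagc
Smad6: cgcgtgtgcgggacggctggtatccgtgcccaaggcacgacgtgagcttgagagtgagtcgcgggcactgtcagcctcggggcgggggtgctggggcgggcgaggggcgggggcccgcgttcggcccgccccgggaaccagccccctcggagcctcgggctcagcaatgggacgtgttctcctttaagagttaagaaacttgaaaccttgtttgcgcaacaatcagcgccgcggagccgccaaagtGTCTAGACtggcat

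GGCGCC began at -231 in the Id2 window and at -148 in the Id4 window; the Bmpr1a window also held it, at -198. Of 32851 promoter windows of the same length, 9.96% held these letters. The Id3 window held CAGAC at -167 and GTCTG at -68, letters that 44.0% of windows hold on at least 1 strand. CAGAC also lay at -98 in the Gdf10 window and at -128 in a Bmpr1b window, and GTCTG at -245 in another Bmpr1b window. Smad6 held GTCTAGAC at -4, letters found in 0.177% of windows. The starts used for the Smad6 and Bmpr1a windows lie inside the gene spans given above. Their positions are counted from those starts and not from the ends of the spans. A match describes letters in the window and was not tested as a binding site. GC content was 61.5% for Id2, 62.3% for Id3, 75.0% for Id4 and 66.2% for Smad6.

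Of 12876, 7177 and 6821 cell barcodes in the P7_WT, P7_L7_Nestin and P7_L7_Emx1 libraries, 10997, 6685 and 6531 passed limits on genes and mitochondrial share. Total unique molecular identifiers (UMIs, one per captured RNA molecule) were 28918491, 26689878 and 28537738. P7_WT stands apart in depth, with a median of 1782 UMIs per cell against 3644 and 3873. A cluster of low-RNA cells, cluster 0, held 3616, 88 and 92 cells, and is given only by its number. Barcodes shared between pairs of libraries numbered 23, 19 and 11. Cells were clustered without the 9 genes and without 52 other BMP pathway genes, and a class was called X-like from its markers. RGL-like cells (radial glia-like, the stem cells of the gyrus) numbered 725, 868 and 907. Neuronal intermediate progenitor-like (nIPC-like) cells numbered 535, 593 and 785, neuroblast-like cells 1215, 2049 and 1640, and astrocyte-like cells 743, 585 and 723. A level is given as CPM, a gene's UMIs in the summed cells of a class scaled to a common total. With 1 library per genotype no test was possible, both mutant libraries were set against the same wild-type library, and intervals are exact 95% intervals that cover counting error only.

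Larp7, which binds the small nuclear RNA 7SK, was lower in the mutant libraries in the neural classes. In RGL-like cells it measured 42.3 CPM in P7_WT (96 UMIs), 10.2 in P7_L7_Nestin (33 UMIs) and 8.4 in P7_L7_Emx1 (28 UMIs). In nIPC-like cells it measured 102.6, 13.3 and 16.0 CPM. In microglia-like cells, which arise outside the neural lineage, it measured 63.1, 34.5 and 37.6 CPM.

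Across 12 classes with at least 50 cells in every library, the Id genes fell into different orders. Endothelial-like, mural-like, leptomeningeal-like, perivascular macrophage-like, Cajal-Retzius-like, GABA neuron-like, ependymal-like and red blood cell-like cells fell under this limit. The orders below do not cover them. Id1 was high in astrocyte-like cells, at 592 CPM ± 56.8 (SD, n = 3 libraries, as for each mean below), and in RGL-like cells, at 569 ± 98.4, and the ranges of these classes overlapped. Glial progenitor-like cells followed at 338 ± 41.3 without overlap. Id1 dropped along the neuronal lineage, to 74.1 ± 13.5 in nIPC-like cells and 17.1 ± 5.62 in neuroblast-like cells. Libraries of different genotypes enter each SD, so it holds both genotype and technical spread.

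Id3 was highest in astrocyte-like cells at 2677 CPM ± 212, above RGL-like cells at 1662 ± 414. The RGL-like range overlapped that of glial progenitor-like cells, at 1021 ± 209. Id3 was 38.4 ± 3.16 CPM in nIPC-like cells and 35.7 ± 3.47 in neuroblast-like cells, ranges that overlapped. Id4 had the reverse order of glial classes, with 402 ± 43.3 CPM in RGL-like cells above 202 ± 26.4 in astrocyte-like cells, and no overlap between them. Id4 was 41.6 ± 4.46 CPM in glial progenitor-like cells and 8.65 ± 1.76 in neuroblast-like cells.

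Id2 departed from the other Id genes by being high in neurons. Astrocyte-like cells led at 1275 CPM ± 179. Cluster 4, postmitotic neurons by their leading genes Cntn2, Crym, Neurod2 and Neurod6, followed at 831 ± 66.8 and overlapped neuroblast-like cells at 733 ± 109. RGL-like cells had 508 ± 93.6 CPM of Id2. The level was lower in nIPC-like cells, at 263 ± 56.3, than in the RGL-like cells or neuroblast-like cells on either side of them in the lineage, and its range in nIPC-like cells overlapped neither of theirs.

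The type I receptors were both highest in astrocyte-like cells. Bmpr1a measured 146 CPM ± 15.8 there and 112 ± 11.0 in RGL-like cells, without overlap, and was still present in neuroblast-like cells at 43.0 ± 8.94. Bmpr1b was more restricted, at 54.8 to 63.3 CPM in the 3 libraries of astrocyte-like cells against 19.4 to 26.1 in RGL-like cells. In nIPC-like cells Bmpr1b measured 0.473 CPM in P7_WT, 0.699 in P7_L7_Nestin and 1.07 in P7_L7_Emx1, levels of a few UMIs per class.

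Gdf10 marked the RGL-like class. It measured 228 CPM in P7_WT (517 UMIs), 192 in P7_L7_Nestin (620 UMIs) and 212 in P7_L7_Emx1 (709 UMIs) in RGL-like cells. Astrocyte-like cells had 7.33, 4.75 and 11.8 CPM, so the 3 libraries gave the same order with no overlap. After each cell was thinned to 1500 UMIs, 28.1%, 22.3% and 26.1% of RGL-like cells held a Gdf10 UMI, against 0.4% of neuroblast-like cells in each library. Cluster 15, led by Gdf10, Lpar1 and Thrsp among other genes, was second at 72.6 CPM ± 6.88.

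The inhibitory Smads were low and differed in where they lay. Smad6 was highest in astrocyte-like cells, at 10.2 CPM in P7_WT (32 UMIs), 7.12 in P7_L7_Nestin (18 UMIs) and 12.96 in P7_L7_Emx1 (44 UMIs). Smad7 was the only one of the 9 genes that was not highest in RGL-like or astrocyte-like cells among the 7 named classes. Of the 12 classes, Smad7 was highest in microglia-like cells at 51.1 CPM ± 10.8, above OPC-like cells (oligodendrocyte precursors) at 32.0 ± 2.67. Endothelial-like cells were left out of this order because P7_L7_Nestin had 49 of them. In endothelial-like cluster 12, Smad7 measured 41.0 CPM in P7_WT (54 UMIs), 61.3 in P7_L7_Nestin (20 UMIs) and 72.1 in P7_L7_Emx1 (56 UMIs). The other 8 genes had their highest named class in RGL-like or astrocyte-like cells under each of 6 alternative ways of forming the classes.

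**Figure D1:**
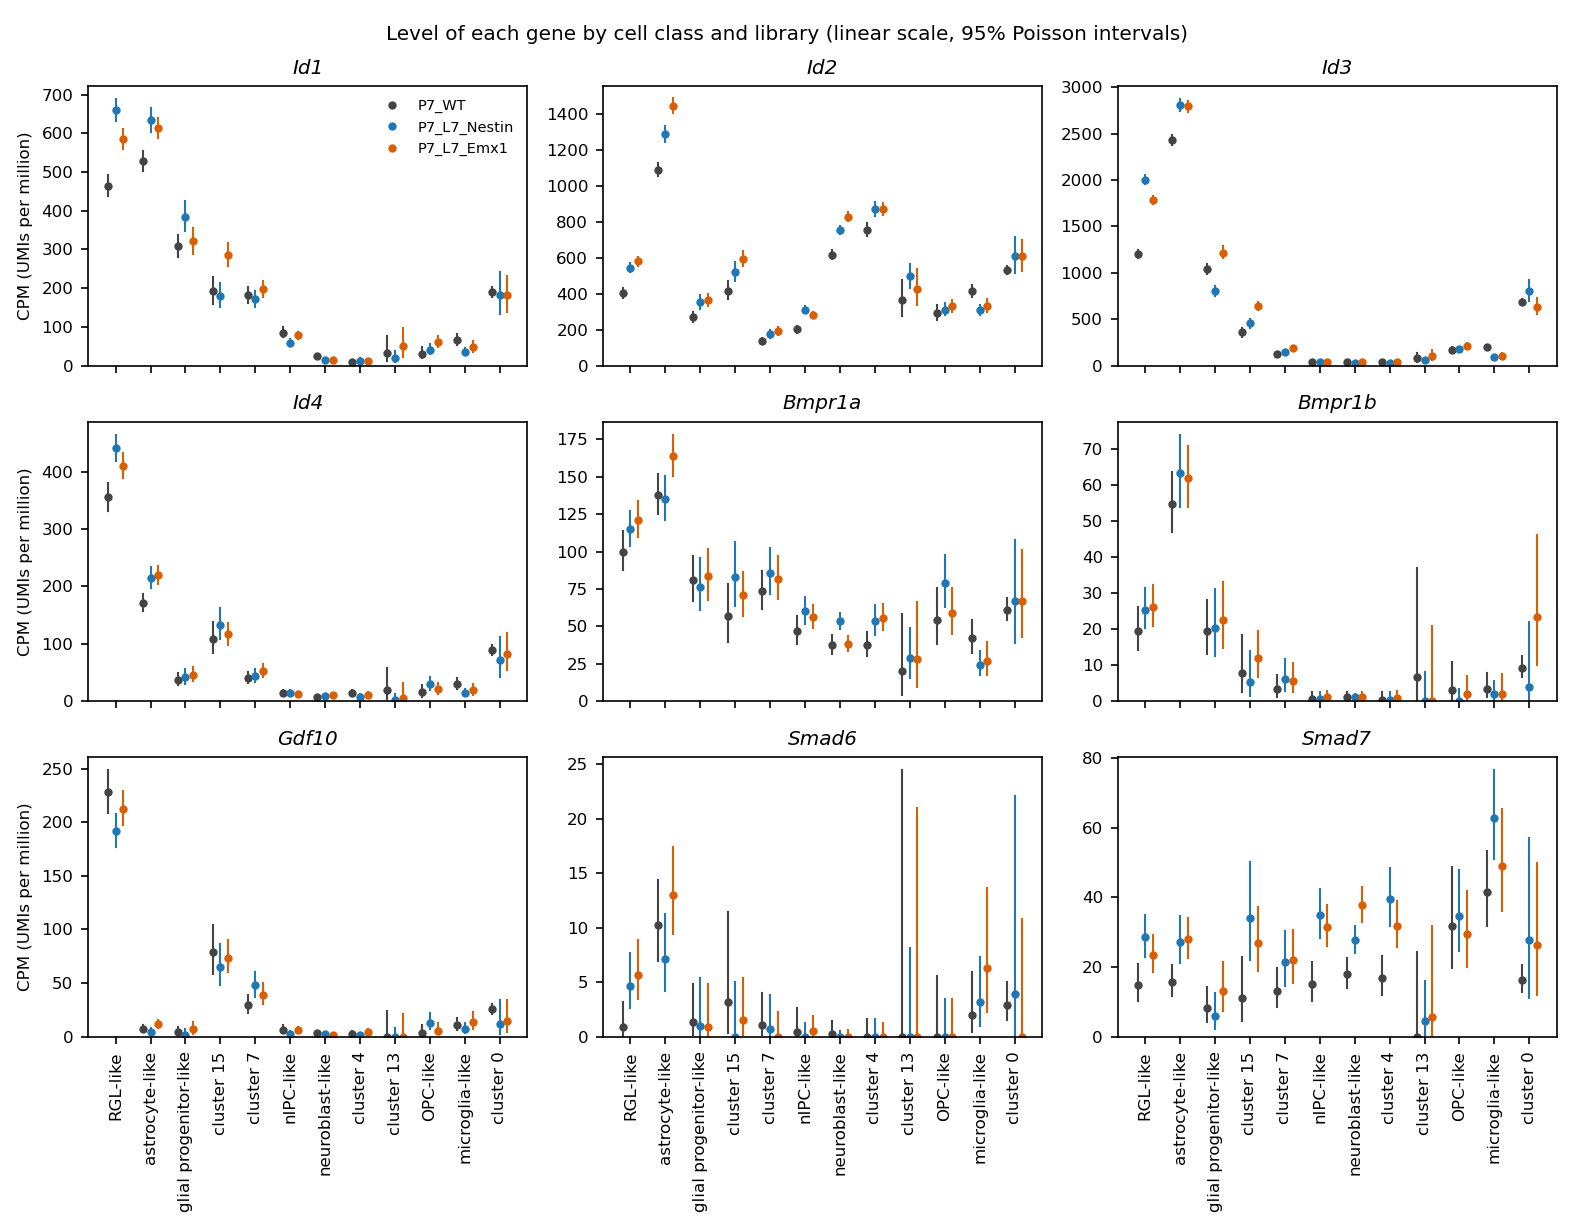
Level of each gene in CPM (y axis, linear) in 12 cell classes (x axis), with 1 point per library and 95% Poisson intervals. Id1, Id3, Id4, Bmpr1b and Gdf10 are low in nIPC-like and neuroblast-like cells, while Id2 is high in neuroblast-like cells and cluster 4. Among the classes shown, which leave out endothelial-like cells, Smad7 is highest in microglia-like cells.

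Likeness of profile was described by Pearson's r of log2(CPM + 1) over 36 points, which are the 12 classes in each of 3 libraries, among 11325 genes. Points of 1 library share depth, and points of 1 class share cell type. Id1, Id3, Id4 and Bmpr1b followed each other, with r from 0.85 to 0.91 over their 6 pairs. Id2 ran from -0.14 to 0.33 with the other members, and Smad7 from -0.10 to 0.32.

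The genes nearest to Id3 were Mt3 (0.98), Sparcl1 (0.97) and Aldoc (0.97), all known as abundant in astrocytes. Gpx8 (0.96), Mgst1 (0.95) and Dio2 (0.95) were nearest to Id1, and Fmo1, Slc1a3 and Entpd2 (each 0.95) to Id4. Frzb (0.94), a secreted Wnt antagonist, was nearest to Gdf10, ahead of Slc2a9 (0.89) and Rgs5 (0.88). For Bmpr1b the nearest genes were Grm3 (0.94), Ttyh3 (0.93) and Dio2 (0.93), and for Bmpr1a they were Arhgef26 (0.95), Dclk1 (0.93) and Rgma (0.92). Rgma encodes a BMP co-receptor. Id2 had no neighbour as near, with Rab30 (0.86), Tmem44 (0.85) and Csdc2 (0.84) leading. Smad6 was nearest to Cst3 (0.87), Glul (0.85) and Slc13a3 (0.85), and Smad7 to Git2 (0.89), Tbk1 (0.88) and Ep300 (0.88).

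In RGL-like cells, Id3 and Smad7 were at least 1.5-fold higher in P7_L7_Nestin than in P7_WT, and Smad7 in P7_L7_Emx1. That is 2 and 1 of 8 genes with at least 100 UMIs over the pair of libraries, and 0 were as much lower. Of all genes with as many UMIs in these cells, 7.62% were as much higher in P7_L7_Nestin and 4.13% in P7_L7_Emx1, and 2.8% and 1.51% as much lower. Their log2 ratios had a median of 0.41 in P7_L7_Nestin and 0.38 in P7_L7_Emx1, beside 0.042 and 0.047 over all genes.

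Id3 in RGL-like cells measured 1201 CPM in P7_WT (2726 UMIs), 2002 in P7_L7_Nestin (6463 UMIs) and 1782 in P7_L7_Emx1 (5948 UMIs). Both mutant libraries lay above the wild type, by ratios of 1.67 (interval 1.59 to 1.74) and 1.48 (1.42 to 1.55). Id1 measured 464, 659 and 584 CPM, with log2 ratios of 0.51 and 0.33. Id2 measured 402, 544 and 579 CPM, with log2 ratios of 0.44 and 0.53. For Id4, the levels were 355, 440.4 and 410 CPM, with log2 ratios of 0.31 and 0.21. All 4 Id genes thus stood higher in both mutant libraries in RGL-like cells, by amounts under 1.5-fold except Id3 in P7_L7_Nestin. At Leiden resolution 2 the RGL-like class joined clusters of unlike mix in P7_WT, P7_L7_Nestin and P7_L7_Emx1. One, with Id4 among its leading genes, held 238, 607 and 507 cells, and the other 490, 260 and 404. Ratios within these clusters were not taken, and the part of this mix in the ratios above was not tested. When every cell was thinned to 1500 UMIs, which puts the libraries at equal depth, the log2 ratios of Id3 were 0.65 and 0.51.

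Receptors and the ligand in RGL-like cells were within 1.5-fold of the wild type. Bmpr1b measured 19.4 CPM in P7_WT (44 UMIs), 25.4 in P7_L7_Nestin (82 UMIs) and 26.1 in P7_L7_Emx1 (87 UMIs), with log2 ratios of 0.39 and 0.43 whose intervals held no difference. Bmpr1a measured 99.996, 114.9 and 121.3 CPM, with a log2 ratio of 0.20 in P7_L7_Nestin, whose interval held no difference, and of 0.28 in P7_L7_Emx1. Gdf10 stood lower in P7_L7_Nestin by a log2 ratio of -0.25 and in P7_L7_Emx1 by -0.10. Smad6 had 2 UMIs in P7_WT RGL-like cells, 15 in P7_L7_Nestin and 19 in P7_L7_Emx1, which gives ratios of 5.27 (interval 1.23 to 47.5) and 6.46 (1.56 to 57.2) that 2 molecules decide.

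Smad7 reached 1.5-fold in more classes than any other of the 9 genes, in both mutant libraries. In RGL-like cells it measured 14.98 CPM in P7_WT (34 UMIs), 28.5 in P7_L7_Nestin (92 UMIs) and 23.4 in P7_L7_Emx1 (78 UMIs). In nIPC-like cells the levels were 15.1 (32 UMIs), 35.0 (100 UMIs) and 31.5 CPM (118 UMIs), ratios of 2.31 (interval 1.54 to 3.56) and 2.08 (1.40 to 3.18). In neuroblast-like cells they were 17.9, 27.8 and 37.8 CPM, with ratios of 1.55 (1.18 to 2.07) and 2.11 (1.61 to 2.81). Astrocyte-like cells gave 15.6, 27.3 and 28.0 CPM, and cluster 4 gave 17.0, 39.4 and 31.8 CPM. Every one of these 5 classes stood higher in both mutant libraries. Over the 6 classes with at least 100 Smad7 UMIs, the gene was at least 1.5-fold higher in 6 in P7_L7_Nestin and in 5 in P7_L7_Emx1, the exception being microglia-like cells, at a log2 ratio of 0.24. Of all genes in microglia-like cells, 5.95% and 3.63% were as much higher. The microglia-like call was lost within clusters: in P7_L7_Nestin the ratio was 1.40 (interval 0.97 to 2.05) in cluster 10, and 0.60 (0.15 to 1.83) in the low-RNA cluster 14, on 17 and 4 UMIs. OPC-like cells had too few UMIs for this limit (21, 37 and 31) and gave 31.8, 34.8 and 29.4 CPM. The limit is on the UMIs of both libraries together, so a class can reach it because Smad7 is higher in the mutant library. P7_WT had 34, 32 and 39 Smad7 UMIs in RGL-like cells, nIPC-like cells and cluster 4. The count of classes is therefore partly set by the limit and adds nothing to the ratios themselves. In cells thinned to 1500 UMIs the interval of Smad7 held no difference in 4 of 8 comparisons of the RGL-like, nIPC-like, neuroblast-like and astrocyte-like classes with P7_WT, while the ratio was above 1 in all 8.

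Neuroblast-like cells, and nIPC-like cells of P7_L7_Nestin, differed from RGL-like cells in the direction of Id1. In nIPC-like cells Id1 measured 85.1 CPM in P7_WT (180 UMIs), 59.1 in P7_L7_Nestin (169 UMIs) and 78.0 in P7_L7_Emx1 (292 UMIs). The log2 ratio was -0.53 in P7_L7_Nestin, and -0.13 in P7_L7_Emx1, where the interval held no difference. Under 6 alternatives it ran from -0.56 to -0.29 in P7_L7_Nestin and from -0.20 to 0.054 in P7_L7_Emx1. Neuroblast-like cells had 23.6 CPM (91 UMIs), 14.2 (106 UMIs) and 13.6 (81 UMIs), ratios of 0.60 (interval 0.45 to 0.81) and 0.57 (0.42 to 0.78). Id1 was therefore lower in both mutant libraries in neuroblast-like cells, where its level was low throughout.

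The neuroblast-like class joins cluster 1 (509, 1329 and 983 cells) and cluster 3 (706, 720 and 657 cells), so cluster 3 holds most of the class in P7_WT and cluster 1 in both mutant libraries. Within cluster 3 the log2 ratios of Id1 were -0.62 and -1.07. In cluster 1, where P7_WT had 24 Id1 UMIs, they were -0.52 and -0.31, with intervals that held no difference. Cells of cluster 0, most of them from P7_WT, had 190.0 CPM of Id1 in that library, and the part of RNA from other cells in the neuroblast-like values was not tested.

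Id2 stood higher in nIPC-like cells of the mutant libraries, at 201 CPM in P7_WT (425 UMIs), 310.4 in P7_L7_Nestin (888 UMIs) and 279 in P7_L7_Emx1 (1044 UMIs). Its ratios were 1.54 (interval 1.37 to 1.74) and 1.39 (1.24 to 1.56). When cells were instead gated one by one on their markers, the log2 ratios of Id2 in nIPC-like cells were 0.021 and 0.11. Over the 12 classes, the interval of Id2 lay above no difference in 9 for P7_L7_Nestin and 8 for P7_L7_Emx1, and below it in 1, microglia-like cells. Id2 was at least 1.5-fold higher in 1 class in P7_L7_Nestin and in 0 in P7_L7_Emx1. With many UMIs the interval leaves out no difference at small ratios, such as 1.16 in cluster 4 of P7_L7_Nestin. All classes share 1 wild-type library, and the share of all genes with such intervals was not taken. At least 1.5-fold higher in nIPC-like cells were 2 of 5 genes in P7_L7_Nestin (Id2 and Smad7) and 1 of 5 in P7_L7_Emx1 (Smad7), against 8.68% and 6.09% of all genes.

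In neuroblast-like cells 1 of 5 genes was at least 1.5-fold higher (Smad7) and 1 lower (Id1) in each mutant library. Of all genes there, 12.6% were as much higher and 9.01% lower in P7_L7_Nestin, and 7.67% and 3.97% in P7_L7_Emx1. In astrocyte-like cells 1 of 7 genes, Smad7, was as much higher in each, against 5.54% and 3.52% of all genes. Id1 to Id4 stood higher there too, at log2 ratios from 0.21 to 0.32 in P7_L7_Nestin and from 0.20 to 0.41 in P7_L7_Emx1. In cluster 4, 1 of 4 genes, Smad7, was as much higher in each, against 8.47% and 6.21% of all genes.

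In OPC-like cells Id2 measured 292, 312 and 330.4 CPM and Id3 163, 177 and 213 CPM, above the wild type in both mutant libraries, though of these 4 intervals only that of Id3 in P7_L7_Emx1 lay above no difference. In glial progenitor-like cells Id2 was higher in both, at log2 ratios of 0.38 and 0.43, and Id1 at 0.32 and 0.058, the last with an interval that held no difference. Id3 was the exception there. Id3 in glial progenitor-like cells measured 1041 CPM in P7_WT, 803 in P7_L7_Nestin and 1219 in P7_L7_Emx1, so the mutant libraries lay on opposite sides of the wild type. In microglia-like cells Id3 measured 198, 96.1 and 108 CPM, log2 ratios of -1.04 and -0.87. The microglia-like class joins cluster 10 (253, 341 and 211 cells) and the low-RNA cluster 14 (323, 105 and 32 cells). Within cluster 10 alone the log2 ratios of Id3 were -0.25 and -0.12, with intervals that held no difference, and within cluster 14 they were -1.84 and -1.39. Of the genes with enough UMIs in microglia-like cells, 3 of 5 were at least 1.5-fold lower in P7_L7_Nestin (Id1, Id3 and Bmpr1a). In P7_L7_Emx1 it was 1 of 4 (Id3). Of all genes, 9.57% and 5.89% were as much lower. Within cluster 10 of P7_L7_Nestin the log2 ratios of Id1 and Bmpr1a were -0.13 and -0.14, with intervals that held no difference. Within cluster 14 they were -1.34 and -1.58, and in both clusters these genes had under 100 UMIs. With at least 1000 genes per cell, 0 of 3 genes in P7_L7_Nestin and 0 of 2 in P7_L7_Emx1 were as much lower.

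**Figure D2:**
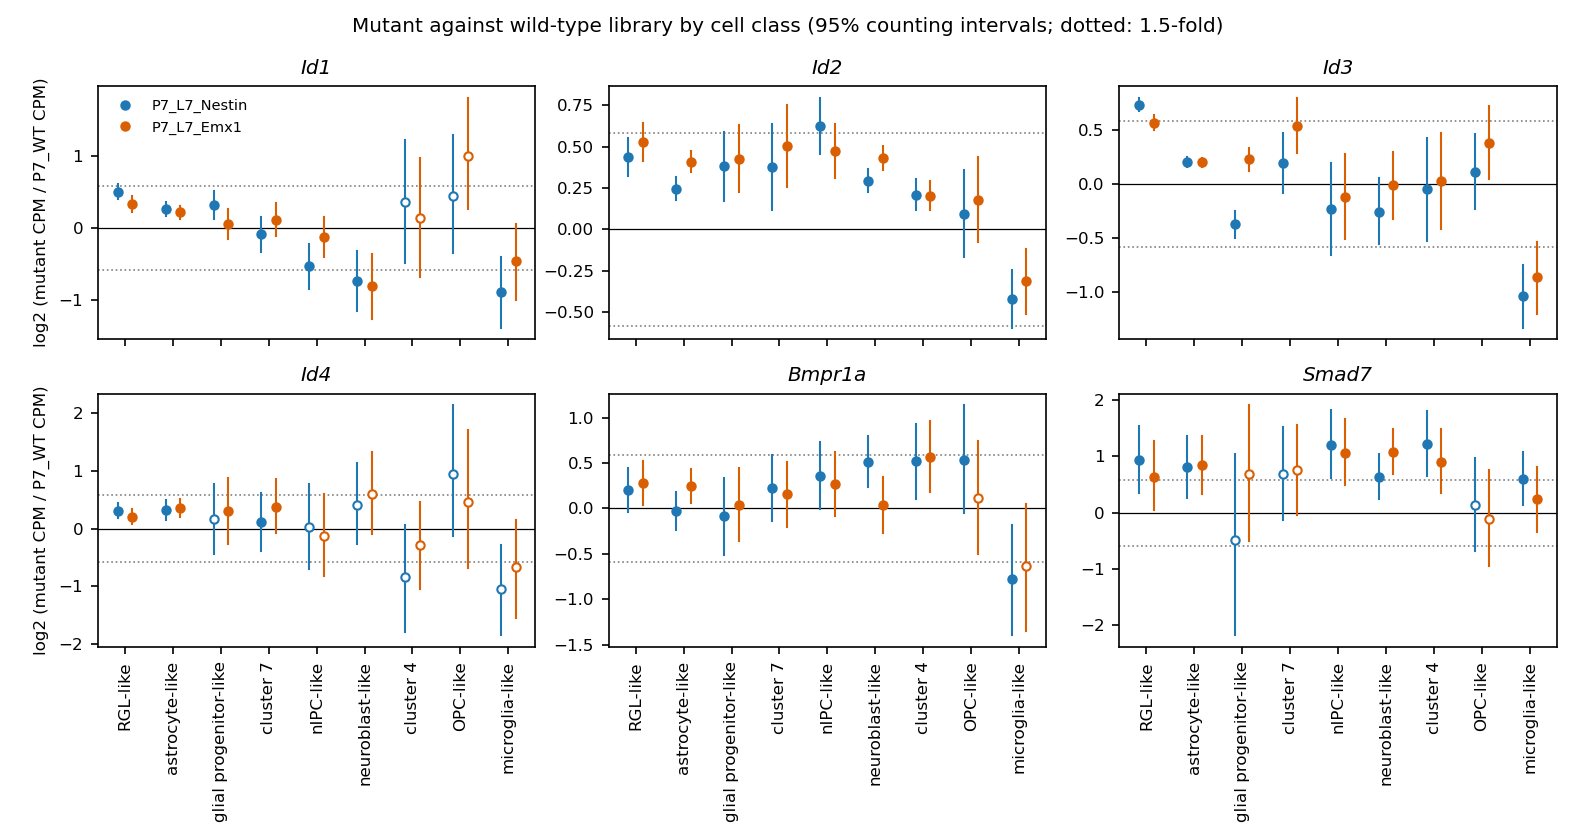
Log2 ratio of CPM in P7_L7_Nestin or P7_L7_Emx1 to P7_WT (y axis) for 6 genes in 9 cell classes (x axis), with 95% counting intervals; open points had under 100 UMIs over the pair of libraries and dotted lines mark 1.5-fold. Id1 and Id3 stand above 0 in RGL-like cells, Id1 below 0 in neuroblast-like cells, and Smad7 above 0 in RGL-like, astrocyte-like, nIPC-like and neuroblast-like cells and cluster 4.

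Among the 52 other pathway genes, 20 in P7_L7_Nestin and 19 in P7_L7_Emx1 had enough UMIs in RGL-like cells, and 3 were at least 1.5-fold higher in each, with 0 lower. Of all genes in RGL-like cells, 7.62% and 4.13% were as much higher, and 2.8% and 1.51% as much lower. The same 3 pathway genes were higher in both libraries, each set against the same P7_WT. Bambi, a decoy receptor that blocks BMP and TGF-beta signals, measured 14.1, 30.7 and 27.6 CPM, with log2 ratios of 1.12 and 0.97. Skil, a Smad co-repressor, measured 24.7, 42.1 and 39.6 CPM, and Hey1, a helix-loop-helix target gene, 50.2, 77.7 and 75.5 CPM. In nIPC-like cells 2 of 18 and 3 of 19 pathway genes were as much higher and 0 lower. Of all genes there, 8.68% and 6.09% were as much higher, and 260 of 6348 and 124 of 6911 as much lower. Fstl1, a secreted BMP-binding protein, was higher in both libraries, at 13.2, 27.6 and 25.4 CPM.

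The pathway genes with the highest mean levels in RGL-like or astrocyte-like cells were Tcf4 (2534 CPM ± 318 in RGL-like cells), Rgma (178 ± 10.7 in astrocyte-like cells), Tob1 (162 ± 30.4), Smad4 (111 ± 13.9) and Tcf3 (110 ± 6.70), the last 3 in RGL-like cells. Tcf4 and Tcf3 encode E proteins, the partners that Id proteins bind. Smad4 is the shared partner of the receptor-activated Smads. Tob1 encodes an antiproliferative protein that also restrains BMP Smads.

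Within each library, cells of a class were divided by their scores for S and G2/M genes after thinning. In RGL-like cells Id4 measured 227 CPM in dividing against 398 in non-dividing cells of P7_WT, 368 against 469 in P7_L7_Nestin and 345 against 439.8 in P7_L7_Emx1. It was lower in dividing cells in each library, with log2 ratios of -0.81, -0.35 and -0.35. Id3 was also lower in dividing cells, at -0.34, -0.28 and -0.41, and Id2 at -0.27, -0.28 and -0.43. Id1 barely differed, at 447 against 468 CPM in P7_WT, 659 against 662 in P7_L7_Nestin and 583 against 585 in P7_L7_Emx1. For Gdf10 the levels were 169 against 250 CPM in P7_WT, 181 against 197 in P7_L7_Nestin and 166 against 236 in P7_L7_Emx1.

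In nIPC-like cells the order of Id1 and Id2 was opposite. Id1 was higher in dividing cells, at 94.0 against 26.7 CPM in P7_WT, 66.4 against 24.5 in P7_L7_Nestin and 85.5 against 43.5 in P7_L7_Emx1. These ratios rest on 6, 12 and 27 Id1 UMIs in the non-dividing cells. Id2 was lower in dividing cells in each library, at 184 against 276 CPM, 283 against 431 and 252 against 410. Id2 and Id3 were likewise lower in dividing astrocyte-like cells, at log2 ratios from -0.33 to -0.30 and from -0.25 to -0.15. Dividing RGL-like cells had higher median depth (3672, 4106 and 4253 UMIs against 3034.5, 3550 and 3464 UMIs), and from 9.96% to 11.8% of RGL-like cells lay near the score limit. Under fixed UMI limits for dividing cells, 0 of the 3 differences in RGL-like cells kept all 3 intervals on 1 side. Id4 stayed lower in dividing cells, at ratios of 0.78, 0.87 and 0.73 in P7_WT, P7_L7_Nestin and P7_L7_Emx1. Id2 turned in P7_WT and P7_L7_Nestin, at 1.03 and 1.02, and Id3 in P7_L7_Nestin, at 1.02.

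**Figure D3:**
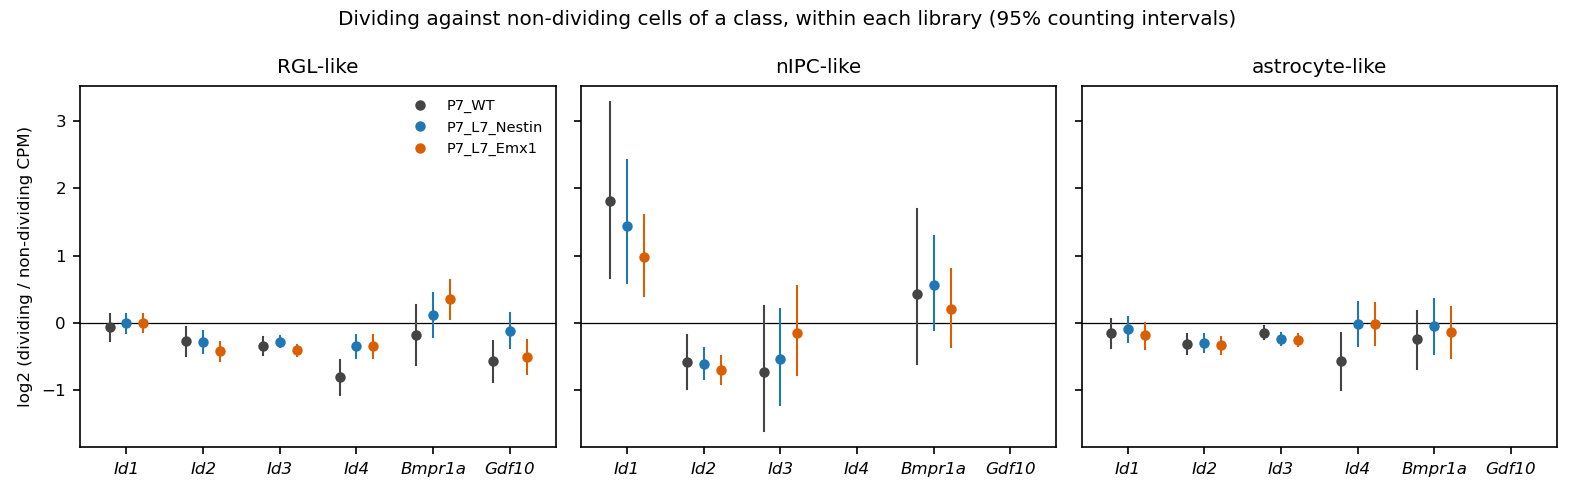
Log2 ratio of CPM in dividing over non-dividing cells (y axis) for 6 genes (x axis) in RGL-like, nIPC-like and astrocyte-like cells, with 1 point per library, 95% counting intervals, and only genes with enough UMIs shown. Id2, Id3 and Id4 lie below 0 in RGL-like cells of all 3 libraries, and Id1 lies above 0 in nIPC-like cells.

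In the neurosphere libraries 59821311 to 62474602 reads were assigned to genes. A bulk value cannot tell fewer cells of a type from less RNA per cell. Larp7 measured 42.8 and 35.0 CPM in WT and 4.17, 6.35 and 4.39 in KO, a log2 fold change of -2.97 (SE 0.21, edgeR quasi-likelihood test, Benjamini-Hochberg adjusted p = 0.0198). That call was lost without KO replicate 1 (edgeR adjusted p = 0.148) or KO replicate 3 (edgeR adjusted p = 0.195), with log2 fold changes of -2.85 and -2.88. Astrocyte marker genes summed to 2028 to 2628 CPM in WT and 1333 to 1678 in KO, and oligodendrocyte markers to 187 to 257 and 279 to 429, with 0 of 14 and 0 of 8 tested genes called. RGL markers summed to 4637 to 4657 CPM in WT and 4337 to 4976 in KO. Sums also did not overlap for nIPC markers (201 to 226 CPM in WT, 255 to 284 in KO), pyramidal neuron markers (84.5 to 88.2, 98.0 to 118), GABA neuron markers (213 to 344, 161 to 170) and mural markers (171 to 173, 93.0 to 151), nor for the low sums of endothelial, ependymal and perivascular macrophage markers, each with 0 genes called. The part of these differences in the values below was not tested. Of 11 microglia markers, 7 were at 0 in every library.

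None of the BMP and Id genes passed the test: 0 of 8 tested had an adjusted p under 0.05, against 0.0338% of all 17753 genes tested, and 1, Smad7, had an unadjusted p under 0.05. Of all genes tested, 21.7% had an unadjusted p under 0.05. DESeq2 called 1 of 7, Smad7, where it called 10.7% of all 14810 genes. The libraries are described as from wild-type and knockout mice, and whether each was a separate mouse or culture is not given in the labels, so p measures the spread between these libraries.

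Smad7 measured 2.33 and 2.11 CPM in WT and 3.93, 3.39 and 5.69 in KO. All 3 KO libraries lay above both WT libraries, at a mean of 4.34 ± 1.21 (SD, n = 3) against 2.22 ± 0.15 (SD, n = 2). The log2 fold change was 0.97 (SE 0.27) with an adjusted p = 0.138 in the edgeR quasi-likelihood test, and DESeq2 gave an adjusted p = 0.0308. Over all genes tested, the libraries of the groups did not overlap for 42.6%. Smad7 overlaps the gene Gm41776, and its reads may be shared where counting ignores strand.

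The Id genes gave overlapping groups. Id1 measured 8.09 and 12.3 CPM in WT and 10.8, 7.70 and 10.6 in KO (log2 fold change -0.07, SE 0.23). Id3 measured 68.5 and 78.5 CPM in WT and 87.5, 65.6 and 79.9 in KO (0.08, SE 0.13). Id4, which overlaps A330033J07Rik, measured 22.8 and 27.2 CPM in WT and 30.9, 22.8 and 24.0 in KO (0.05, SE 0.16).

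Id2 depended on 1 library. It measured 82.2 and 130.9 CPM in WT and 91.8, 87.6 and 89.5 in KO, a log2 fold change of -0.25 (SE 0.18, edgeR adjusted p = 0.451). The KO libraries lay between the WT libraries. Without WT replicate 1, the log2 fold change was -0.55 (edgeR adjusted p = 0.00960), a fit in which the lone WT library is assumed to vary like the KO libraries. Without WT replicate 2 it was 0.13.

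The receptors were slightly lower in KO within overlapping groups. Bmpr1a measured 192 and 217 CPM in WT and 197, 173 and 185 in KO (log2 fold change -0.14, SE 0.08). Bmpr1b measured 45.4 and 35.2 CPM in WT and 40.8, 33.0 and 30.3 in KO (-0.22, SE 0.17). Smad6 was near the limit of counting, at 0.233 and 0.631 CPM in WT and 0.739, 0.194 and 0.270 in KO. Gdf10 had 0 reads in both WT libraries and 0, 22 and 8 reads in KO, too few to be tested.

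**Figure D4:**
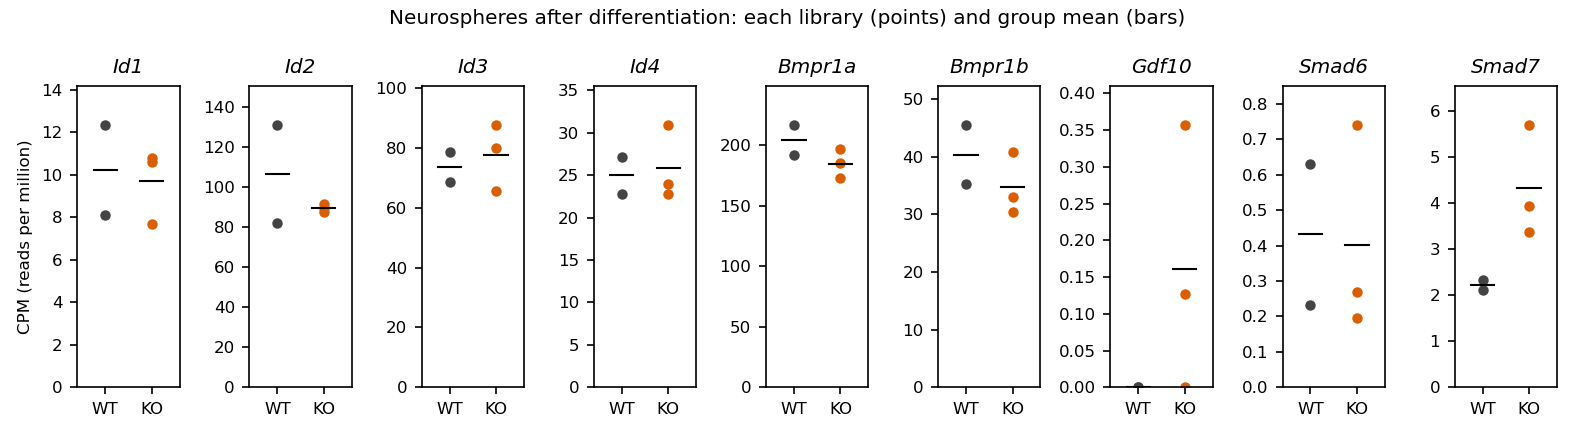
CPM of each gene (y axis, starting at 0, own scale per gene) in the WT and KO neurosphere libraries (x axis), with points for libraries and bars for group means. The 3 Smad7 values in KO, 3.39 to 5.69 CPM, lie above both WT values, while the groups of the other genes overlap.

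Of the 52 other pathway genes, 44 were tested and 0 were called by edgeR, while 5 higher and 6 lower in KO had an unadjusted p under 0.05, a limit that 21.7% of all genes passed. DESeq2 called 3 higher (Bambi, Chrdl1 and Tob1) and 2 lower (Nbl1 and Atoh8) of 39, where it called 10.7% of all genes. Chrdl1, Tob1, Nbl1 and Atoh8 are named after their values were seen. Without WT replicate 1, edgeR called 3 pathway genes higher and 5 lower, beside 1050 higher and 855 lower of all genes. The median log2 fold change of the 44 was 0.03, and that of all genes 0.0065. Bambi measured 3.37 and 2.92 CPM in WT and 7.22, 8.98 and 9.08 in KO, a log2 fold change of 1.42 (SE 0.18, edgeR adjusted p = 0.0820). Skil measured 51.5 and 47.8 CPM in WT and 61.2, 57.9 and 59.0 in KO (log2 fold change 0.26, SE 0.08), and Hey1 35.2 and 35.7 against 39.5, 39.7 and 39.3 (0.15, SE 0.08). For these 3 genes the groups did not overlap. Among the 44 tested pathway genes the groups did not overlap for 8 higher in KO, these 3 included, and for 11 lower. Over all genes tested the share was 42.6%. Fstl1 measured 33.3 and 32.2 CPM in WT and 46.4, 23.4 and 34.1 in KO, groups that overlapped.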

How the data were processed

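Single-cell values were deposited as counts of UMIs per gene and barcode, made by the authors with Cell Ranger on mm10; the Cell Ranger version differs between the file header and the methods. The neurosphere table holds deposited read counts per gene; featureCounts is named in the submitters' processing notes. Of its sample columns, 5 belong to no sample used here and were left out. ATAC-seq and CUT&Tag samples were not analysed here.

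Cells with more than 500 genes and under 15% mitochondrial UMIs were kept and clustered with scanpy 1.11.5 and leidenalg 0.10.2 (Leiden resolution 1), leaving out all 9 genes and the 52 pathway genes. The 6% of cells with the highest doublet scores were left out only as an alternative. UMIs were summed per class and library, with exact Poisson or binomial intervals and a limit of 1.5-fold on genes with at least 100 UMIs over the pair of libraries. Any gene near that number of UMIs can reach it by being higher in 1 library of the pair. Dividing cells had an S or G2/M score above 0 after thinning to 1500 UMIs. Counts in neurospheres were tested with edgeR 4.0.16 (quasi-likelihood, TMM, filterByExpr, Benjamini-Hochberg over all genes); DESeq2 1.42.0 was an alternative. Scripts for both were tested on simulated data.

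All 9 genes are described; other genes are named by rule: pathway genes called in neurospheres, the 5 with the highest RGL-like or astrocyte-like level, those at least 1.5-fold different the same way in both mutant libraries in RGL-like or nIPC-like cells, and the 3 genes nearest in profile to each of the 9. The genes, lists and limits were chosen with earlier results of these data known. Promoter windows are from RefSeq. Nothing in the labels pairs WT and KO replicates that share a number. Their deviations from the group means correlated at -0.00533 and 0.0934. With 2 WT libraries the deviations of each mirror those of the other, so these values cannot decide whether libraries were paired.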

Additional observations from a re-analysis of the deposited data

Results flagged for a closer look

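Id1 differed in direction between cell classes under the same comparison with P7_WT. In P7_L7_Nestin its log2 ratio was 0.51 in RGL-like and 0.27 in astrocyte-like cells but -0.73 in neuroblast-like cells. In P7_L7_Emx1 it was 0.33 in RGL-like and 0.22 in astrocyte-like cells but -0.80 in neuroblast-like cells. The difference between classes was not tested, because each genotype is 1 library.

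Id3 in glial progenitor-like cells differed in direction between the mutant libraries, with a log2 ratio to P7_WT of -0.37 in P7_L7_Nestin and 0.23 in P7_L7_Emx1. This difference was not tested either.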

How the results depend on the processing

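In neurospheres, DESeq2 called 1 of the BMP and Id genes and 5 of the pathway genes where edgeR called 0; over all genes it called 726 higher and 860 lower, or 10.7%. Leaving out each library in turn gave 0 to 1 and 0 to 8 calls, with the highest counts without WT replicate 1. The log2 fold changes then ran from -0.35 to 0.26 for Id1, -0.55 to 0.13 for Id2, -0.017 to 0.19 for Id3, -0.094 to 0.18 for Id4 and -0.89 to 0.78 for Smad6, and each of these 5 genes changed direction in at least 1 such fit. With a replicate block the edgeR fit called 0 genes of either list, Smad6 gave 0.0032 and Smad7 0.72 (adjusted p = 0.356). The block also removed all 6 edgeR calls over all genes, that of Larp7 included (log2 fold change -2.90, adjusted p = 0.344).

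Counts of genes at least 1.5-fold different from P7_WT were as follows for P7_L7_Nestin, then P7_L7_Emx1. In RGL-like cells (2 and 1), thinning gave 1 and 0, the marker gate gave 5 in P7_L7_Nestin, and in P7_L7_Emx1 scaled genes gave 0 and at least 1000 genes per cell gave 2. The 5 of 8 under the gate were all higher, beside 798 higher and 233 lower of all 8595 genes. The 2 of 8 with at least 1000 genes were higher, beside 321 higher and 106 lower of 7837. In astrocyte-like cells (1 and 1), at least 1000 genes gave 0 and 3, thinning 0 and 0, the gate 2 and 2, and Leiden resolution 2 gave 2 in P7_L7_Emx1. The 3 of 8 were all higher, beside 332 higher and 338 lower of all 8422 genes. Under the gate the 2 of 8 were higher in each mutant library. Beside them stood 428 higher and 218 lower of 8030 genes in P7_L7_Nestin, and 252 and 189 of 8494 in P7_L7_Emx1. At Leiden resolution 2 the 2 of 8 were higher, beside 291 higher and 275 lower of 8398. In nIPC-like cells (2 and 1), P7_L7_Nestin gave 1 under Leiden resolution 2, scaled genes, at least 1000 genes, thinning and the gate, and P7_L7_Emx1 gave 0 under thinning and the gate. The 1 of 4 under the gate was lower, beside 250 higher and 154 lower of all 4600 genes. In neuroblast-like cells (2 and 2), Leiden resolution 2 gave 1 and 1, scaled genes 0 and 1, at least 1000 genes 1 and 1, thinning 1 and 1, the gate 5 and 5, leaving out doublet scores 1 in P7_L7_Nestin, and cluster 1 alone, an alternative chosen after seeing the data, 1 in P7_L7_Emx1. The gate gave 1 higher and 4 lower of 7 genes in each mutant library, where the main setting gave 1 higher and 1 lower. Of all genes under the gate, 1082 were higher and 1156 lower of 10492 in P7_L7_Nestin. In P7_L7_Emx1, 744 were higher and 608 lower of 10412. Thinning leaves fewer UMIs, so fewer genes reach the limit of 100; the cause of the other shifts was not tested. Smad7 stayed above P7_WT in RGL-like cells under all 6 alternatives (log2 ratio 0.81 to 1.28 and 0.49 to 0.83), as did Id3 (0.65 to 0.87 and 0.51 to 0.61). In neuroblast-like cells of P7_L7_Nestin the log2 ratio of Smad7 ran from 0.21 to 0.93. Its 1.5-fold call there was lost with scaled genes, at least 1000 genes, and doublet scores left out. In astrocyte-like cells of P7_L7_Nestin it ran from 0.52 to 0.84, and the call was lost with at least 1000 genes and thinning.

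With UMI limits for dividing cells, 0 of 3 genes in RGL-like cells and 1 of 2 in astrocyte-like cells kept all intervals on 1 side; nIPC-like cells held too few non-dividing cells. Spearman correlation shared 10 of 27 nearest genes with Pearson. Depth limits Smad6 and Bmpr1b outside glia, and 1 library per genotype limits all single-cell differences.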
